A study of Homo sapiens with 21 samples.

Results

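Adding the auxin herbicide 2,4-D to AMPA was examined by comparing 3 libraries of C3A cells exposed to both compounds with 3 libraries exposed to AMPA alone. These are 6 of the 21 RNA sequencing libraries of the study. Genes were joined by gene ID, and a gene entered the comparison when it reached an FPKM (fragments scaled by gene length and by the depth of the library) of 1 in 3 of the 6 libraries. Of 28808 genes listed in any table, 12066 were tested, 10089 of them protein-coding. The genes were then separated by whether AMPA+2,4-D replicate 2 lay with replicates 1 and 3 or apart from them.

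C3A is a clonal derivative of HepG2, a human hepatoma line that keeps many traits of hepatocytes. All exposures lasted 48 h at concentrations 1000-fold below the IC50 (the median inhibitory concentration). AMPA was given at 34 µM (3.7 µg/mL), and the mixture held the same AMPA with 2.5 µM 2,4-D (0.56 µg/mL). The other groups used here are glyphosate at 5.6 µM (0.95 µg/mL), glyphosate with 2,4-D at those concentrations, and 2,4-D alone, with 3 libraries each. A further 6 libraries are unexposed and enter no comparison below. The libraries are of a single cell line, and nothing in the labels ties a replicate to a culture of its own, so that p-values measure the spread between these libraries only.

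AMPA (aminomethylphosphonic acid) is the main breakdown product of glyphosate in soil. 2,4-D (2,4-dichlorophenoxyacetic acid) mimics the plant hormone auxin, a signal that animal cells lack, and as a lipophilic carboxylic acid it is carried in blood bound to albumin. Among the pathways followed below, hypoxia-inducible factors raise glucose transporters and glycolytic enzymes, and serum response factor (SRF) drives actin and actin-binding proteins. The unfolded protein response raises chaperones of the endoplasmic reticulum.

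Reads recovered from the FPKM values came to 15.29 to 18.52 M in the 6 libraries. All 10 hepatocyte lineage markers were tested, and their summed level was 12460 to 13070 FPKM with AMPA and 11590 to 12380 FPKM with the mixture. Stromal and endothelial markers summed to 1.90 to 2.58 FPKM and 2.61 to 2.89 FPKM, nearly all of it PDGFRB, with the endothelial receptor KDR at 0. Immune markers summed to 592 to 632 FPKM and 544 to 593 FPKM, nearly all of it lysozyme (LYZ), while CD14 stayed at or under 0.235 FPKM and CD68 at or under 0.199 FPKM.

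AMPA+2,4-D replicates 1 and 3 stood apart from the other exposed libraries. Over 6437 genes with a mean of at least 5 FPKM, the SD of the log2 difference was 0.151 between these 2 libraries, and 0.243 and 0.251 between each of them and replicate 2. By this SD replicate 2 lay 0.163 to 0.189 from the 3 AMPA libraries, and the AMPA libraries lay 0.143 to 0.157 from each other. Replicates 1 and 3 lay 0.266 to 0.279 from AMPA. The median absolute log2 difference, which a few large falls move less, showed a weaker split. By it replicate 2 lay 0.0854 to 0.0974 from AMPA, and 0.0962 and 0.0896 from replicates 1 and 3. The AMPA libraries lay 0.0667 to 0.0748 from each other, and replicates 1 and 3 lay 0.105 to 0.134 from AMPA.

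2 features of the transcripts moved with this split. Of 556 annotated antisense genes, 131 and 149 were at least 1 log2 unit below the AMPA mean in replicates 1 and 3. The number was 5 in replicate 2 and 0 to 11 in the 12 other exposed libraries. Of the 92 genes whose exons overlap an abundant gene on the opposite strand, 28 and 31 were that far below in replicates 1 and 3 and 0 in replicate 2. GC content moved too: from the lowest to the highest quintile of genes by GC content, the median log2 difference from AMPA went from 0.11 to -0.14 in replicate 1 and from 0.11 to -0.12 in replicate 3. In replicate 2 it went from 0.02 to -0.02. The labels do not state the strand of the kit, and reads of a gene and of its antisense partner cannot be told apart without it. The part of these features in the gene differences below was not tested beyond the values given beside them.

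**Figure D1:**
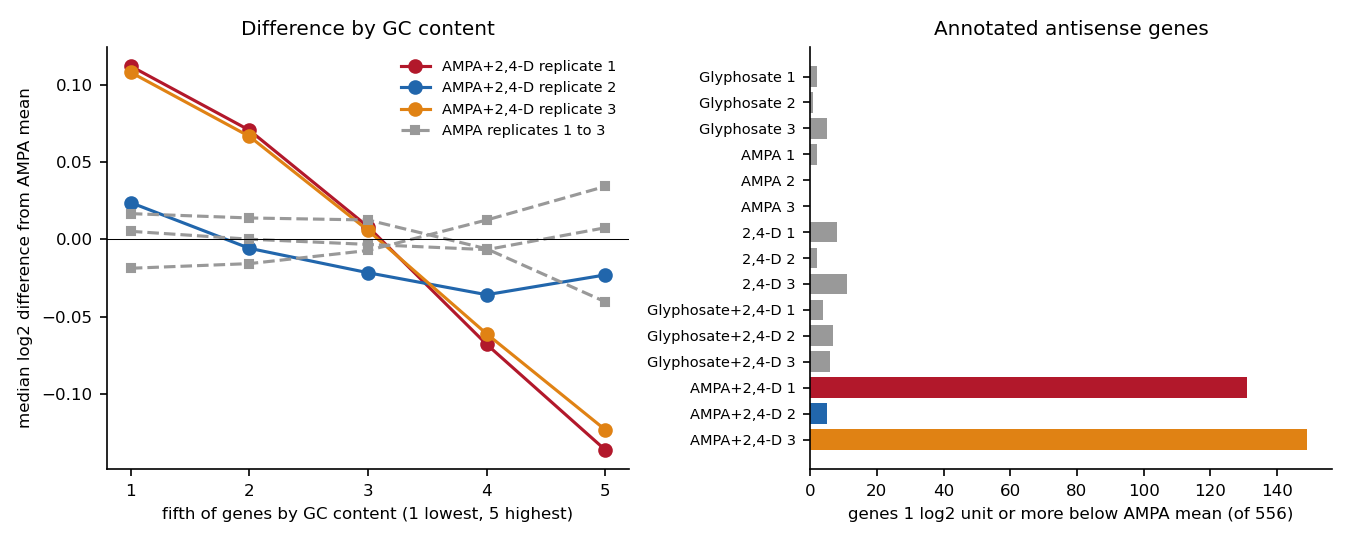
Left, the median log2 difference from the AMPA mean in each quintile of tested genes by GC content, for each AMPA+2,4-D replicate (coloured circles) and each AMPA replicate (grey squares). Right, the number of 556 antisense genes at least 1 log2 unit below the AMPA mean in each of the 15 exposed libraries. AMPA+2,4-D replicates 1 and 3 fall steeply with GC content and hold 131 and 149 low antisense genes, while replicate 2 holds 5.

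Many genes differed by little between AMPA+2,4-D and AMPA. Differences were taken on log2(FPKM + 1), which understates the change of low genes, and tested with limma over the 15 exposed libraries. A gene is called here at a Benjamini-Hochberg adjusted p under 0.05. Of the 12066 genes, 988 (8.19%) were called, 328 higher (2.72%) and 660 lower (5.47%) with 2,4-D added. The median size of a called difference was 0.24 on the log2 scale, or 1.18-fold, and the median half-width of a gene's 95% interval was 0.15. On this scale no gene was called with a rise of 2-fold or more, and 36 were called with a fall of that size. In mean FPKM itself GSTA2 went from 2.35 to 5.61. These 36 were mostly antisense genes, 27 in all, with 2 protein-coding genes among them. In 31 of the 36 the fall in replicate 2 was under 0.5 of the mean of the other replicates.

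How many genes were called rested on the libraries and on the estimate of spread. The count was 284 (2.35%), 1696 (14.1%) and 393 (3.26%) when AMPA+2,4-D replicate 1, 2 or 3 was left out. Of all tested genes 0.572%, 5.26% and 0.854% were then higher and 1.78%, 8.79% and 2.4% lower. It was 440 (3.65%), 512 (4.24%) and 469 (3.89%) when AMPA replicate 1, 2 or 3 was left out, with 1.13%, 1.29% and 1.11% higher and 2.52%, 2.95% and 2.78% lower. With AMPA+2,4-D replicate 2 alone against AMPA, limma called 2 genes (0.0166%), the ERK phosphatase gene DUSP5 and the ribosomal protein gene RPS28, both lower. With the spread taken from the 6 compared libraries alone it called 3 (0.0249%), namely NDUFA4L2, KRT19 and the microRNA gene MIR6870, all lower. MIR6870 passed the filter through its AMPA libraries alone, so that its direction was partly set by the filter. With the spread taken from all 21 libraries limma called 391 (3.24%), 105 higher (0.87%) and 286 lower (2.37%). Removing a trend with GC content and length from each library left 384 calls (3.18%), 135 higher (1.12%) and 249 lower (2.06%). Rescaling the values to TPM (transcript levels scaled to a fixed sum per library) gave 913 calls (7.57%), 611 higher (5.06%) and 302 lower (2.5%). Higher genes made up 33.2% of calls on FPKM, 66.9% on TPM, which moved the median of all tested genes from -0.00 to 0.05, and 57.5% with voom on the recovered reads. A core of 49 higher and 166 lower genes was called with all 6 libraries and also with each of them left out in turn. Of these, 35 and 132 were also called with the GC and length trend removed.

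All 3 AMPA+2,4-D libraries lay outside the range of the AMPA libraries, to the same side, in 3219 genes (26.7%), 1517 of them higher (12.6%) and 1702 lower (14.1%). Replicate 2 was the library that did not join the other two in 2387 genes (19.8%), and in 642 of these it lay beyond the AMPA range on the opposite side. Replicate 1 was the odd library in 791 genes (6.56%) and replicate 3 in 970 (8.04%). In the glyphosate pair (glyphosate+2,4-D against glyphosate), measured in other libraries, all 3 libraries agreed in 2542 genes (21.1%), and replicates 1, 2 and 3 of the mixture were odd in 1593, 1253 and 1105 genes. Of the 988 called genes, 973 were among those where all 3 libraries agreed and 14 among those where replicate 2 did not.

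Agreement in side was not agreement in size. In 770 of the 988 called genes the difference in replicate 2 was at least 0.5 of the mean of replicates 1 and 3, in 218 (22.1%) it was smaller, and in 0 it had the opposite sign. Among genes called higher the median difference was 0.26, 0.17 and 0.22 in replicates 1, 2 and 3, and among those called lower it was -0.29, -0.20 and -0.26. Since all 3 replicates entered the calls, these medians describe the called genes and test nothing. GC content differed too, with a median of 40.2% in genes called higher, 57.6% in those called lower and 48.4% in all tested genes.

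**Figure D2:**
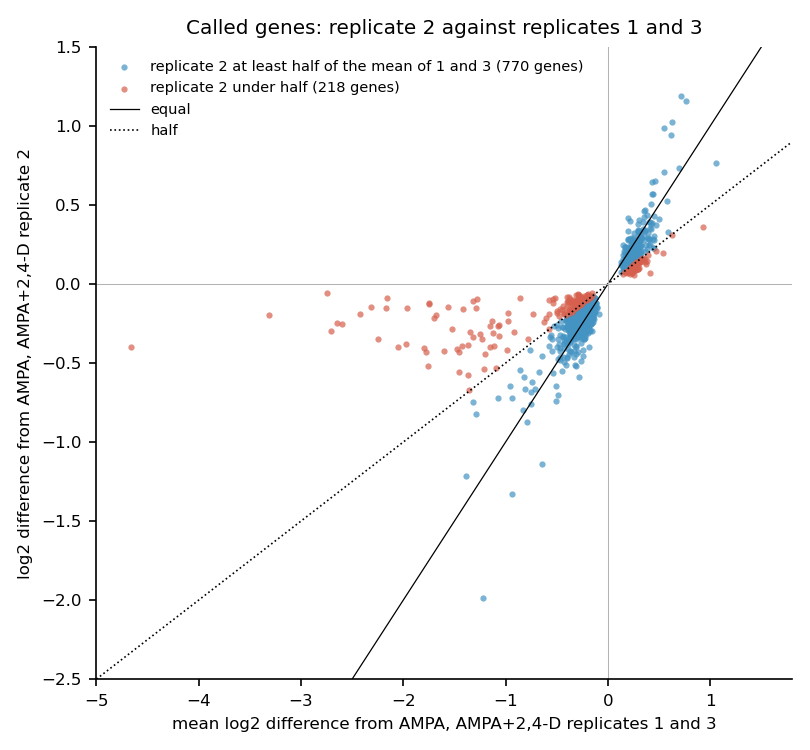
Each point is 1 of the 988 called genes, with the mean log2 difference of AMPA+2,4-D replicates 1 and 3 from the AMPA mean on the x axis and that of replicate 2 on the y axis. The 770 blue points reach at least 0.5 of the other replicates' difference and lie around the line of equal values, and the 218 red points, with the largest falls among them, lie close to 0 on the y axis.

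Genes of glycolysis and of the response to hypoxia fell together. Of 35 tested members, 21 were called lower and 0 higher, against 5.47% lower among all tested genes. The difference was below 0 in all 35, and in 26 the libraries of the mixture lay wholly below those of AMPA, as in 14.1% of all tested genes. The median over the list was -0.24, beside -0.00 for all tested genes. By library it was -0.26, -0.25 and -0.22 in replicates 1, 2 and 3, so that replicate 2 showed it at the size of the others. Between 10 and 19 members were called lower when a library was left out, 14 on TPM and 10 with the GC and length trend removed. The count was 5 with all 21 libraries, and 0 both with the compared groups alone and with replicate 2 alone.

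The promoters of 4 members are shown for the pentamer ACGTG, the core of the sequence that hypoxia-inducible factors bind, which part of the list holds. They are the 4 called members with the most negative difference whose promoter holds it. Each run is 300 bases of GRCh38.p14 from RefSeq, from 250 before to 50 after the gene's start, with ACGTG on either strand (CACGT on the strand shown) in capitals. They lie at chr17:28576846-28577145 (ALDOC, minus strand), chr2:74833877-74834176 (HK2, plus strand), chr12:6914330-6914629 (ENO2, plus strand) and chrX:78103998-78104297 (PGK1, plus strand).
ALDOC: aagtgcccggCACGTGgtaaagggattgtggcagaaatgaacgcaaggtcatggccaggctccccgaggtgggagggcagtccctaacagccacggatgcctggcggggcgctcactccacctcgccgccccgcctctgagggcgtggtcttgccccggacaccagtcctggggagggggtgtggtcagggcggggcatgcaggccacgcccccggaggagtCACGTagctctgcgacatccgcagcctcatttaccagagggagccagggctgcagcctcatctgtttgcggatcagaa 
HK2: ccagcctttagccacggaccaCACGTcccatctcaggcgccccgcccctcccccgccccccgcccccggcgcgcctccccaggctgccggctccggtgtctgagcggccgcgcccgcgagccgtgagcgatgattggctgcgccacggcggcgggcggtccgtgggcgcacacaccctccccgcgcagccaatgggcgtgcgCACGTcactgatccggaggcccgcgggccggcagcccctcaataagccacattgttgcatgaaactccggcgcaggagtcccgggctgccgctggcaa 
ENO2: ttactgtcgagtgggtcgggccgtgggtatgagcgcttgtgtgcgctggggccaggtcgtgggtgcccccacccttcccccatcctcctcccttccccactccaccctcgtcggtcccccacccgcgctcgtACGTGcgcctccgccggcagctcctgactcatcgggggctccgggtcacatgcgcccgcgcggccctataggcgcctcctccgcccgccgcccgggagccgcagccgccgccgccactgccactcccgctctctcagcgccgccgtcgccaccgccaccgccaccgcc 
PGK1: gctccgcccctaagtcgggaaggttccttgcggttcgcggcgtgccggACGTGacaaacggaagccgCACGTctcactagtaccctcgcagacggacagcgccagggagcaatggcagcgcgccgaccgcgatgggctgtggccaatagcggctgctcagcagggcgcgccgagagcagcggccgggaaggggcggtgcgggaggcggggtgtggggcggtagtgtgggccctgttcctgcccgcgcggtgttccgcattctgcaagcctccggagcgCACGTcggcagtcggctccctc

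ACGTG was present in the promoters of 15 of the 31 list members that could be matched by symbol (48.4%) and of 9 of the 18 called and matched (50%). It was present in 27.6% of 8103 protein-coding tested genes and in 21.6% of all 27305 promoters. The longer E-box CACGTG, which contains it, was present in 5 of the 31 (16.1%) and in 10.6% of protein-coding tested genes. Among matched actin and SRF genes ACGTG was present in 4 of 20 (20%), and among matched ribosomal protein genes in 20 of 62 (32.3%). The share was 8 of 22 (36.4%) for the unfolded protein response and 7 of 19 (36.8%) for immediate early genes. The pentamer was searched after the gene differences were known, and a match is a description of the letters and not of a bound site.

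The glucose phosphorylating enzyme hexokinase 2 (HK2) read 99.4, 107 and 107 FPKM in AMPA replicates 1 to 3 and 78.3, 82.6 and 87.0 FPKM in the mixture. Its groups did not overlap, and the difference was -0.33 (limma, adjusted p = 0.0108). PFKFB3, which makes the activator of phosphofructokinase, read 12.7, 14.0 and 13.2 FPKM against 9.66, 9.99 and 9.53 FPKM. All 3 libraries of the mixture were more than 2 FPKM below the lowest AMPA library, and the difference was -0.41 ± 0.07 (SE; adjusted p = 0.00739). Triosephosphate isomerase (TPI1) read 244, 237 and 251 FPKM against 177, 191 and 187 FPKM, a difference of -0.40 (adjusted p = 0.00924). Adrenomedullin (ADM), a vasoactive peptide induced by hypoxia, read 16, 16.3 and 16.9 FPKM against 12.9, 13.1 and 13.2 FPKM. The 3 values of each group differed by less than 1 FPKM, and the groups were apart by -0.31 ± 0.04 (adjusted p = 0.0031).

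Other enzymes and transporters of the list fell by similar amounts. GAPDH, the enzyme that follows TPI1 and one of the most abundant transcripts, read 1275, 1272 and 1379 FPKM against 1053, 1071 and 1086 FPKM, a difference of -0.29. The glucose transporter SLC2A3 and the aldolase ALDOC each differed by about -0.35 to -0.36, the enolase ENO2 by -0.31, and the pyruvate kinase PKM and the kinase PGK1 by -0.29. VEGFA, the angiogenic growth factor, fell less, by 0.13. Lactate dehydrogenase A (LDHA), at -0.11 with adjusted p = 0.35, was among the 14 members that were not called.

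NDUFA4L2, a hypoxia-induced relative of a respiratory chain subunit, was not on the list and was named for its difference from the glyphosate pair described below. It lies at chr12:57234903-57240715. It read 26.1, 25.8 and 26.6 FPKM with AMPA and 19.6, 19.5 and 19.9 FPKM with the mixture. The replicates of each group were within 1 FPKM of each other, and the difference was -0.39 ± 0.04 (adjusted p = 0.00153).

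Genes of the actin cytoskeleton and SRF targets fell as a group as well. Of 24 tested members, 16 were called lower and 0 higher, against 5.47% lower among all tested genes. In 20 the mixture lay wholly below AMPA, as in 14.1% of all tested genes. The median was -0.23, with -0.23, -0.19 and -0.20 in replicates 1, 2 and 3. When a library was left out 6 to 16 members were called, with 9 when the GC and length trend was removed. There were 8 with all 21 libraries, and 0 with the compared groups alone or with replicate 2 alone.

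Beta-actin (ACTB, chr7:5527147-5563784) read 279, 276 and 287 FPKM with AMPA and 230, 229 and 231 FPKM with the mixture. The libraries of the mixture were nearly equal and all were below AMPA, with a difference of -0.29 (adjusted p = 0.0031). Gamma-actin (ACTG1) read 479, 486 and 492 FPKM against 426, 432 and 404 FPKM, a difference of -0.21. Transgelin (TAGLN), an actin-binding protein of contractile cells, read 7.82, 7.95 and 7.5 FPKM against 5.46, 5.74 and 5.89 FPKM. Its difference of -0.39 (adjusted p = 0.00388) was the most negative of the list. Filamin A (FLNA), which crosslinks actin, read 103, 101 and 106 FPKM against 76.1, 84.9 and 85.9 FPKM, a difference of -0.33. Of the 2 members above 0, LIMA1 had 0.17 (adjusted p = 0.13) and CNN3 had 0.05 (adjusted p = 0.55).

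**Figure D3:**
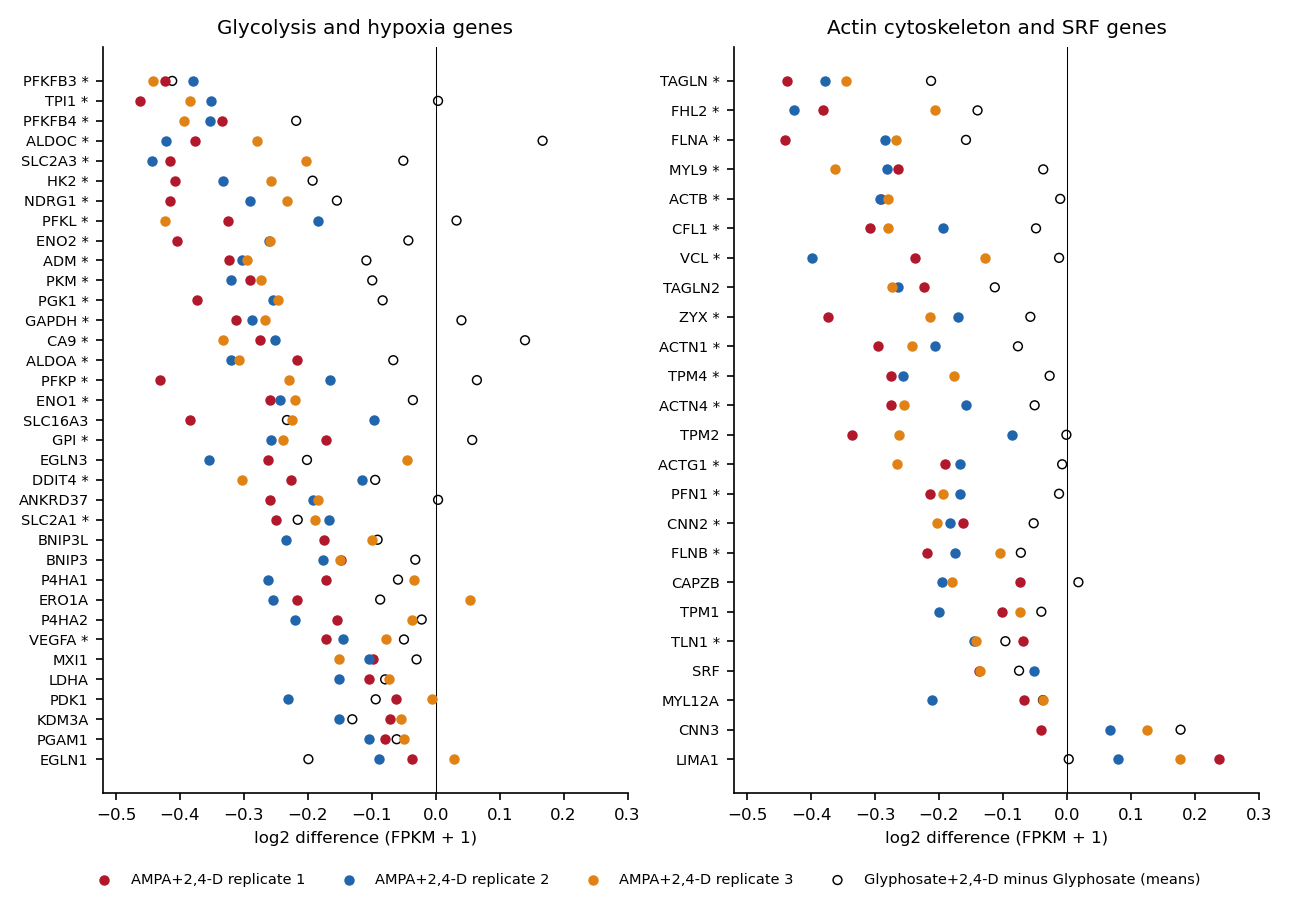
The log2 difference from the AMPA mean of each glycolysis and hypoxia gene (left, 35 genes) and each actin and SRF gene (right, 24 genes) in AMPA+2,4-D replicates 1 to 3 (coloured points), with the difference of means of the glyphosate pair as an open circle and an asterisk on called genes. In most genes the blue points of replicate 2 lie among those of replicates 1 and 3, most below 0, and the open circles lie nearer to 0.

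Transcripts of cytosolic ribosomal proteins were slightly lower. Of 78 tested members, 21 were called lower and 0 higher, and 72 had a difference below 0. The mixture lay wholly below AMPA in 52, beside 14.1% of all tested genes, of which 5.47% were called lower. The median was -0.12, -0.12 and -0.15 in replicates 1, 2 and 3. Protein-coding genes whose symbol is RPL or RPS with a number summed to 9.32% ± 0.164 of all FPKM with AMPA and 8.81% ± 0.129 with the mixture (SD, n = 3 each; exact permutation p = 0.1, two-sided, the smallest that 3 against 3 allows). The count called was 5, 21 and 6 when AMPA+2,4-D replicate 1, 2 or 3 was left out, 9, 11 and 6 when AMPA replicate 1, 2 or 3 was, 12 on TPM and 10 with the GC and length trend removed. With all 21 libraries it was 6, and with the compared groups alone 0. Many of these genes have near-identical processed pseudogenes, so that the split of reads between copies is uncertain.

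RPS28 of the small subunit fell most among them, from 88.7, 88.4 and 94.3 FPKM to 55.2, 67.4 and 50.8 FPKM. Its groups did not overlap, the difference was -0.65 ± 0.07 (adjusted p = 0.0031), and replicate 2 was the highest of the mixture. RPS2 read 898, 852 and 851 FPKM against 677, 781 and 723 FPKM, a difference of -0.26. RPSA, also of the small subunit, read 283, 286 and 292 FPKM against 250, 266 and 250 FPKM, a difference of -0.17. RPS12, one of the most abundant transcripts called, read 2119, 2086 and 2220 FPKM against 1883, 1919 and 1858 FPKM. Its difference of -0.18 (adjusted p = 0.0454) was lost in 5 of the 6 fits that left out a library.

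Nuclear genes of oxidative phosphorylation had a median of -0.11 over 39 tested members, with 6 called lower and 0 higher, against 5.47% lower among all tested genes. Of these members 1, 5 and 1 were called lower without AMPA+2,4-D replicate 1, 2 or 3, 1, 3 and 3 without AMPA replicate 1, 2 or 3, and 1 on TPM. UQCRC1, a core protein of complex III, read 73.1, 71.5 and 74.1 FPKM against 61.2, 61.5 and 62.6 FPKM, a difference of -0.23 (adjusted p = 0.00481). That call was lost with the GC and length trend removed, which left 2 of the 6. Of the 13 mitochondrially encoded genes, 2 were called higher, MT-CO3 and MT-ATP8, beside 2.72% higher among all tested genes. MT-ATP8 read 303, 204 and 224 FPKM against 435, 309 and 485 FPKM, and its call was lost in 4 of the 6 fits without a library. The mitochondrial share of all FPKM was 22.3% ± 1.57 with AMPA and 23.3% ± 1.28 with the mixture (SD, n = 3 each; exact permutation p = 0.5, two-sided).

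Apolipoproteins and other secreted liver proteins moved in both directions. Of 34 tested members, 9 were called lower and 2 higher, against 5.47% and 2.72% of all tested genes, and the median was -0.10, with -0.07, -0.12 and -0.12 in replicates 1, 2 and 3. The number lower was 5, 10 and 6 without AMPA+2,4-D replicate 1, 2 or 3 and 6, 9 and 6 without AMPA replicate 1, 2 or 3. It was 5, with 2 higher, when the GC and length trend was removed, and 1, with 0 higher, with all 21 libraries. Apolipoprotein C-III (APOC3, chr11:116829706-116833072), an inhibitor of triglyceride clearance, read 134, 140 and 144 FPKM with AMPA and 109, 104 and 106 FPKM with the mixture. Replicate 2 was the lowest of the 6 libraries, and the difference was -0.39 ± 0.06 (adjusted p = 0.00475, and 0.0511 with the GC and length trend removed).

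Fetuin-A (AHSG), a plasma glycoprotein, read 3035, 2824 and 2964 FPKM against 2459, 2388 and 2380 FPKM, a difference of -0.29. Prothrombin (F2) read 238, 228 and 238 FPKM against 198, 203 and 198 FPKM, and complement C3 read 727, 651 and 728 FPKM against 593, 591 and 609 FPKM, each with a difference of -0.23. Alpha-1-antitrypsin (SERPINA1) read 1798, 1780 and 1915 FPKM against 1597, 1511 and 1603 FPKM, and its call was lost without AMPA replicate 3 or without AMPA+2,4-D replicate 1. In the other direction, apolipoprotein B (APOB), the structural protein of very low density lipoprotein, read 371, 369 and 356 FPKM against 436, 396 and 419 FPKM, a rise of 0.19. The other member called higher was fibrinogen alpha (FGA) at 0.28. Further members called lower included APOA1 at -0.27 and transferrin (TF) at -0.19.

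Growth and stress response genes were lower in part. Of 26 tested immediate early genes, 7 were called lower and 0 higher, against 5.47% lower among all tested genes, with a median of -0.14 in replicates 1 and 3 and of -0.02 in replicate 2. Without AMPA+2,4-D replicate 1, 2 or 3 the number was 4, 10 and 5, and without AMPA replicate 1, 2 or 3 it was 6, 6 and 5. The transcription factor genes EGR1, FOS and JUN were not called, at 0.09, -0.04 and -0.12. DUSP5 read 12.1, 13.2 and 13.9 FPKM against 7.99, 7.64 and 10.2 FPKM, a difference of -0.56 (adjusted p = 0.00481) that was largest in replicate 2. DUSP1, a phosphatase of stress-activated kinases, read 49.2, 55.6 and 44.8 FPKM against 38.0, 39.1 and 34.6 FPKM, a difference of -0.41. GADD45B, a stress sensor, differed by -0.39. CYR61 (chr1:85580761-85583962), a matrix protein induced by SRF and YAP, read 38.7, 37.7 and 43.7 FPKM against 29, 28.7 and 29.4 FPKM. The 3 libraries of the mixture were within 1 FPKM of each other and the difference was -0.45 (adjusted p = 0.00481).

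Of 16 tested YAP and TEAD targets 5 were called lower and 0 higher, CYR61 and CTGF being shared with the immediate early list, beside 5.47% lower among all tested genes. It was 3 without AMPA+2,4-D replicate 1, without AMPA replicate 2 or 3, with the GC and length trend removed, on TPM and with all 21 libraries. The cardiac and stress-induced repeat protein ANKRD1 read 33.2, 43.2 and 40.0 FPKM against 28.8, 27.6 and 29.2 FPKM, a difference of -0.42 (adjusted p = 0.0126). The NF-kB list had 4 of 11 members called lower, with all 11 below 0 and a median of -0.16. The chemokine CCL20 read 296, 304 and 313 FPKM against 244, 245 and 263 FPKM, a difference of -0.28, and the adhesion molecule ICAM1 read 31.3, 30.6 and 31.0 FPKM against 25.8, 26.4 and 27.2 FPKM, a difference of -0.22. Without AMPA+2,4-D replicate 1, limma called 0 of the NF-kB members, with the GC and length trend removed 1, and on TPM 2.

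Some chaperones of the endoplasmic reticulum were higher. Of 24 tested genes of the unfolded protein response, 6 were called higher and 0 lower, against 2.72% higher among all tested genes. The median was 0.07, with 18 of 24 above 0, and 0.08, 0.07 and 0.06 in replicates 1, 2 and 3. The 6 were the chaperones HSP90B1, DNAJB11, DNAJC3, CANX and HSPA5 and the degradation factor SEL1L. The chaperones CALR at -0.00 and HYOU1 at 0.06 were not called, and likewise the transcription factors of the response, with XBP1 at -0.03, DDIT3 at 0.05 and ATF4 at -0.06. The number called was 2, 8 and 2 without AMPA+2,4-D replicate 1, 2 or 3, 7, 4 and 2 without AMPA replicate 1, 2 or 3, and 2 with the GC and length trend removed.

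HSP90B1 (chr12:103930107-103953645), which folds secreted and membrane proteins, read 1244, 1301 and 1249 FPKM with AMPA and 1598, 1424 and 1496 FPKM with the mixture. Replicate 2 was the lowest of the mixture and still above each AMPA library, and the difference was 0.25 ± 0.04 (adjusted p = 0.0066). DNAJB11, a partner of HSPA5, read 42.6, 44.4 and 42.7 FPKM against 49.6, 47.9 and 50.5 FPKM, a difference of 0.19 (adjusted p = 0.00617). HSPA5 itself read 1315, 1240 and 1224 FPKM against 1438, 1393 and 1382 FPKM. Its rise of 0.16 was lost in 4 of the 6 fits without a library, while those of HSP90B1 and DNAJB11 were called in all 6.

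The protein-coding genes with the largest rises are given next. The glutathione transferase GSTA2 (chr6:52750089-52763569) read 2.12, 2.57 and 2.37 FPKM against 7.3, 4.7 and 4.81 FPKM, from 44, 59 and 50 reads against 169, 94 and 114. Its groups did not overlap and the difference was 0.96 ± 0.19 (adjusted p = 0.0116), but without AMPA+2,4-D replicate 1 it was 0.78 with adjusted p = 0.0508. GSTA1 is nearly identical in sequence, so that the split of reads between the 2 genes is uncertain. SLC17A2, a phosphate and anion transporter of the liver, read 20.7, 18.1 and 17.3 FPKM against 35.4, 31.8 and 26.9 FPKM, a difference of 0.71 ± 0.12 (adjusted p = 0.00664). GPAM, the mitochondrial acyltransferase that starts triglyceride synthesis, read 14.0, 12.8 and 12.6 FPKM against 22.2, 19.3 and 18.2 FPKM. All 3 libraries of the mixture were above all 3 of AMPA, with a difference of 0.56 ± 0.11 (adjusted p = 0.0108).

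TECTB, a tectorin of the inner ear matrix, was low but apart, at 1.49, 1.41 and 1.14 FPKM against 2.76, 2.82 and 2.14 FPKM, a difference of 0.60 (adjusted p = 0.00781). The calls of SLC17A2, GPAM and TECTB held in all 6 fits without a library. Those of ATP6V0C (0.52), SULT1E1 (0.50) and SPTSSB (0.47) did not. SULT1E1 passed the filter through the mixture alone, at 0.815, 0.93 and 0.447 FPKM with AMPA against 1.74, 1.16 and 1.43 FPKM.

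**Figure D4:**
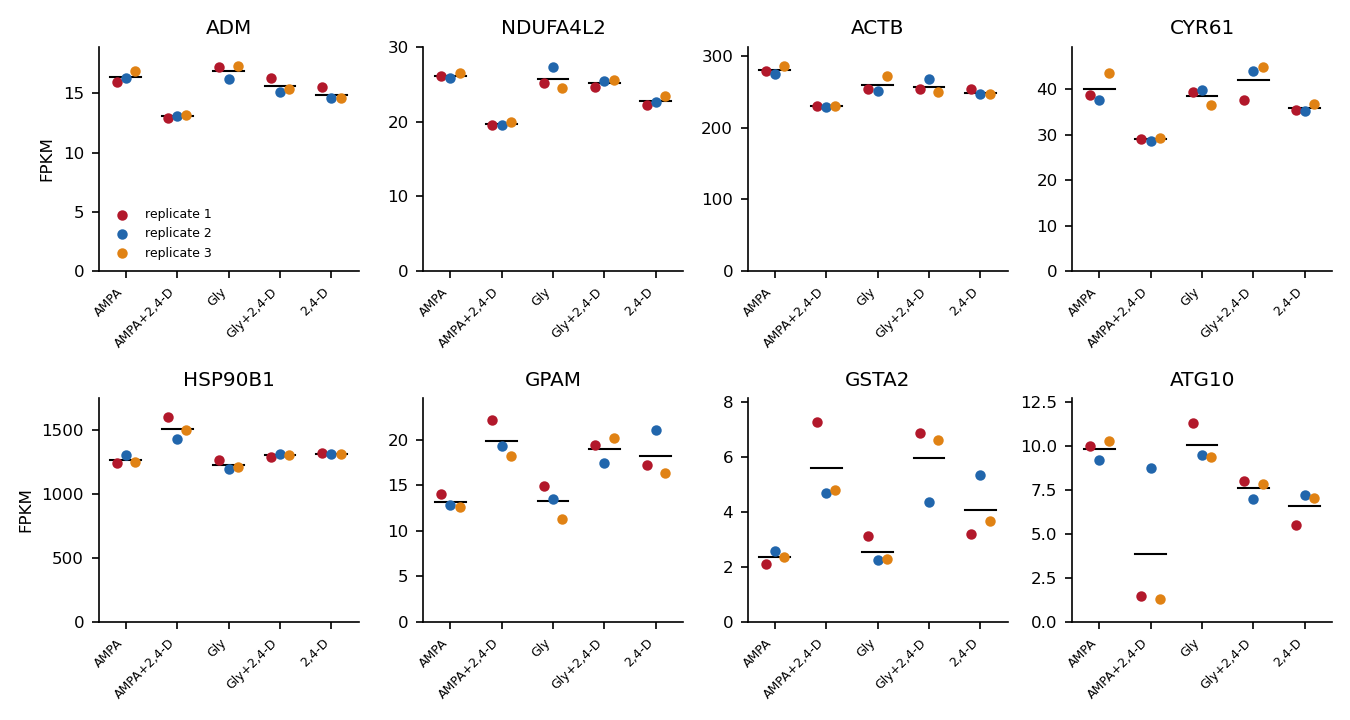
FPKM of 8 genes in AMPA, AMPA+2,4-D, glyphosate (Gly), glyphosate+2,4-D (Gly+2,4-D) and 2,4-D alone, with 1 point per library coloured by replicate number and a bar at the group mean. ADM, NDUFA4L2, ACTB and CYR61 are lowest in AMPA+2,4-D with its 3 libraries close together, GPAM and GSTA2 are higher in AMPA+2,4-D and Gly+2,4-D than in AMPA and Gly, and ATG10 is near 9 FPKM in AMPA+2,4-D replicate 2 and under 2 FPKM in replicates 1 and 3.

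The lipid, sterol and antioxidant lists were mixed. Over all tested genes 2.72% were called higher and 5.47% lower, with a median of -0.00. For cholesterol synthesis and uptake, 4 of 24 members were called lower and 0 higher, with a median of -0.04. In this list 3 were lower with all 21 libraries, and 3 lower and 1 higher with the GC and length trend removed. DHCR7, the last enzyme of cholesterol synthesis, read 14.2, 13.5 and 13.3 FPKM against 8.96, 10.1 and 9.86 FPKM, a difference of -0.46, and the sterol isomerase EBP read 11.6, 11.2 and 11.7 FPKM against 9.14, 9.55 and 9.37 FPKM, a difference of -0.27 (adjusted p = 0.00388). The squalene epoxidase SQLE was not called, at 0.05. PPAR alpha targets had 4 of 27 members called lower and 0 higher, with a median of -0.02. All 21 libraries gave 2 lower, as did removal of the GC and length trend. The 4 included the fatty acid binding protein FABP1, at 65.6, 65.7 and 74.9 FPKM against 46.8, 54.7 and 45.7 FPKM (-0.48, lost without AMPA replicate 3 and without AMPA+2,4-D replicate 1 or 3).

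In the NRF2 list 3 of 25 members were called higher and 4 lower, beside 2.72% and 5.47% of all tested genes. With the GC and length trend removed, and also without AMPA+2,4-D replicate 1, it was 2 higher and 0 lower, on TPM 7 and 1, and with all 21 libraries 0 and 1. The ketosteroid reductase AKR1C2 read 17.6, 17.0 and 15.7 FPKM against 23.9, 24.2 and 21.8 FPKM, a rise of 0.45 (adjusted p = 0.0109). The close homologues of the AKR1C family leave its reads uncertain. The cystine transporter SLC7A11 rose by 0.28. TKT and TALDO1, enzymes of the pentose phosphate route, were among those that fell, at -0.15 and -0.13. NQO1 had -0.02 and was not called.

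In the lists that follow the counts are small, and stand beside 2.72% called higher and 5.47% lower among all tested genes. Hepatocyte transcription factors had 3 of 17 members called higher (FOXA1, ONECUT2 and PPARGC1A, at 0.20 to 0.22) and 0 lower, and 0 called without AMPA+2,4-D replicate 1 or without AMPA replicate 2 or 3. Splicing factors had 3 of 28 higher, with SRSF1 at 0.42. The number of splicing factors called was 1 with the GC and length trend removed, and 6 on TPM. Replication genes had 4 of 35 lower, with E2F1 at -0.39 and MCM5 at -0.27, and 1 with the GC and length trend removed. The proteasome had 3 of 29 lower, with PSMD2 at -0.26. Heat shock genes had 2 of 24 higher (HSPA4 and HSPA5) and 2 lower, the small heat shock protein HSPB1 at -0.39 and DNAJB1 at -0.31. In the ATF4 list 3 of 29 were higher and 1 lower.

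Fatty acid and triglyceride synthesis had 1 of 26 higher (GPAM) and 2 lower (AGPAT2 and SREBF1), and bile acid genes 2 of 12 higher (BAAT and KLB) and 1 lower (SLC51A). Xenobiotic metabolism (GSTA2 higher, POR lower, of 17) and p53 targets (TP53INP1 higher, GADD45A lower, of 21) had 1 member called each way, and interferon-stimulated genes had 2 of 18 lower. Metallothionein and zinc genes had 2 of 8 higher, both zinc transporters. Amino acid catabolism (1 of 25), WNT genes (LGR5 of 13) and chaperonins (PFDN4 of 15) had 1 member called higher each. The WNT call was lost in all 6 fits that left out a library, that of the chaperonins in 5 of them, and that of amino acid catabolism without AMPA+2,4-D replicate 1 and without AMPA replicate 1.

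Of 8 genes named whatever their values, limma called 0 here. These were IGFBP3 at -0.33, HSPA6 at 0.30, CYP1A1 and DKK1 at -0.16 each, CDKN1A at -0.12, CPT1A at -0.07, HMOX1 at 0.05 and CYP2B6 at -0.03. The drug-metabolising enzymes CYP1A1 and CYP2B6 and the fatty acid oxidation enzyme CPT1A report on the aryl hydrocarbon receptor, on CAR and on PPAR alpha, and the others on heat, oxidative or DNA damage stress and on secreted growth regulators.

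**Figure D5:**
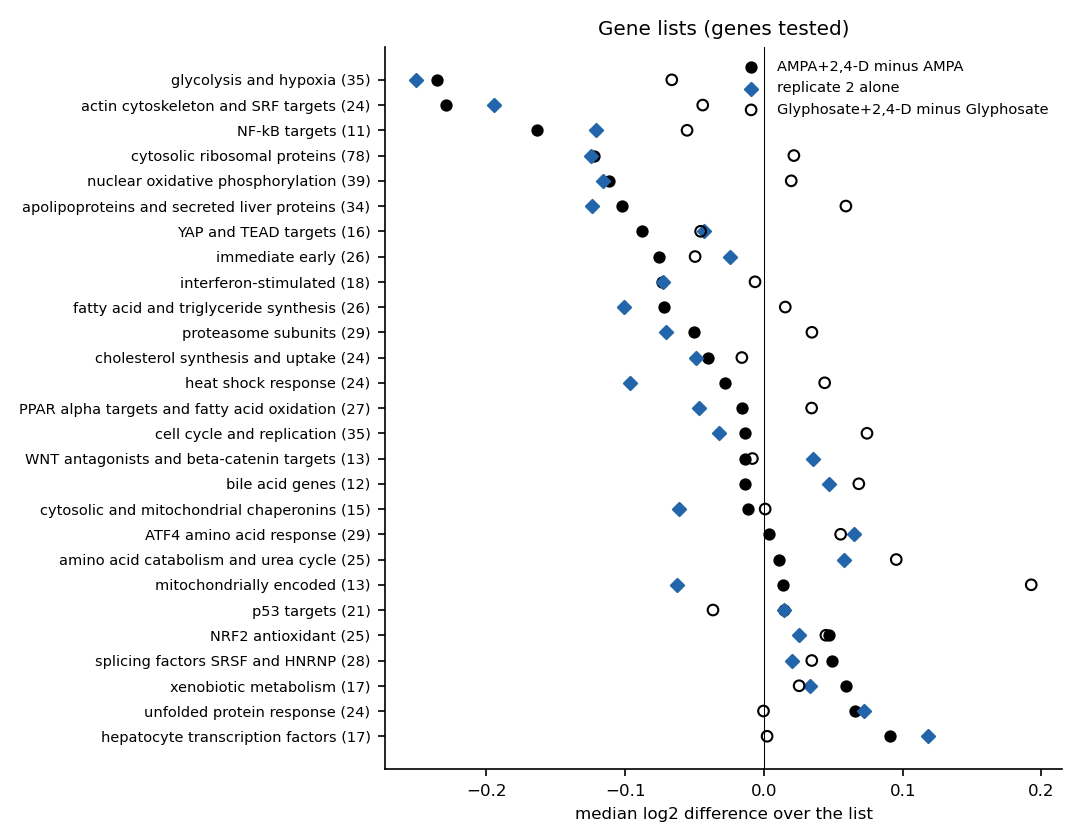
Median log2 difference over the tested members of each gene list (number in brackets), for AMPA+2,4-D minus AMPA (black), for AMPA+2,4-D replicate 2 alone minus AMPA (blue) and for glyphosate+2,4-D minus glyphosate (open circles). The lists of glycolysis and of actin genes stand lowest at -0.24 and -0.23, with replicate 2 at -0.25 and -0.19 and the glyphosate pair at -0.07 and -0.04.

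In several of the protein-coding genes with the largest falls the replicates were split. ATG10 (chr5:81972025-82276857), an autophagy enzyme, read 10.0, 9.19 and 10.3 FPKM with AMPA and 1.49, 8.74 and 1.32 FPKM in replicates 1, 2 and 3 of the mixture. Replicate 2 lay just under the AMPA range, so that ATG10 counted as agreeing, although its difference there was -0.15 and the mean difference -1.50 ± 0.38 (adjusted p = 0.0339). Without replicate 1 or 3 the adjusted p was 0.144 or 0.117. Its exons overlap those of the ribosomal protein gene RPS23 on the opposite strand by 374 bases, and RPS23 read 273, 256 and 303 FPKM against 248, 235 and 228 FPKM.

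CCDC152, whose exons overlap the selenoprotein gene SELENOP by 1452 bases, had the same form, with 7.49, 7.62 and 7.54 FPKM against 1.37, 6.7 and 1.03 FPKM. BEST1, a chloride channel gene that overlaps the ferritin gene FTH1 by 1267 bases, read 5.29, 5.12 and 4.92 FPKM against 1.72, 4.68 and 1.19 FPKM. Of their abundant partners, SELENOP read 217, 224 and 223 FPKM against 248, 231 and 231 FPKM. FTH1 read 590, 548 and 582 FPKM against 542, 538 and 543 FPKM. A link between the falls and the partners was not tested. TOMM7, a subunit of the mitochondrial import pore, read 28.2, 27.5 and 32.4 FPKM against 16.2, 27.5 and 15.2 FPKM, where replicate 2 lay just under the lowest AMPA library before rounding. It too counted as agreeing, with a difference of -0.09 in replicate 2. MT-ND6, encoded on the other strand of the mitochondrial genome from most of its genes, read 433, 384 and 402 FPKM against 163, 405 and 156 FPKM and was not called (-0.90, adjusted p = 0.0517).

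Over both replicates 1 and 3, 140 tested genes were at least 1 log2 unit below the AMPA mean. Of these, 110 were antisense genes, 7 were protein-coding and 26 overlapped an abundant gene on the opposite strand, with replicate 2 as low in 1 of the 140. Of the 556 antisense genes 55 were called lower (9.89%), and of 92 opposite-strand overlap genes 17 (18.5%), beside 5.47% of all tested genes. In 45 of the 55 the difference in replicate 2 was under 0.5 of the mean of the other replicates. S100A1, a calcium-binding protein with no such split, read 19.3, 19.7 and 22.3 FPKM against 13.1, 12.7 and 15.2 FPKM, a difference of -0.55 (adjusted p = 0.00846). WDR38 was lower in replicates 1, 2 and 3 of the mixture, by -1.01, -0.41 and -0.96, with a mean difference of -0.79 (limma, adjusted p = 0.0288). Its reads were few, 53, 42 and 73 with AMPA against 17, 33 and 19 with the mixture.

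Among the 14 called genes where replicate 2 did not agree, the largest falls of protein-coding genes were small. The transcription factor gene CEBPD read 7.16, 5.46 and 7.07 FPKM against 4.79, 5.7 and 4.25 FPKM (-0.35), with replicate 2 inside the AMPA range. SIVA1 differed by -0.23, and the nuclear envelope protein gene SUN2 by -0.22, with 21.8, 21.7 and 19.5 FPKM against 17.2, 19.6 and 16.9 FPKM. AAMP read 49.1, 46.6 and 44.4 FPKM against 36.0, 44.5 and 40.0 FPKM (-0.22). No protein-coding gene of this class was called higher, and those with the smallest p were DCAF17 at 0.22, KCNMB3 at 0.21, OFD1 at 0.19 and EIF5B at 0.15. GON7 stood out for a low replicate 2, with 8.37, 9.26 and 8.11 FPKM against 8.9, 6.04 and 8.99 FPKM, and was not called (-0.11).

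Adding 2,4-D to glyphosate gave far fewer calls than adding it to AMPA, in libraries that share none with the comparison above. Of the same 12066 genes 4 were called (0.0332%), IL11, ARFGEF3 and SPRY4 lower and TECTB higher, and 1519 (12.6%) had an unadjusted p under 0.05, against 3097 (25.7%) for AMPA. The difference between the 2 effects was called in 0 genes (0%), with 1610 (13.3%) at an unadjusted p under 0.05. It was called in 261 genes (2.16%) without AMPA+2,4-D replicate 2 and in 154 (1.28%) with voom. The gap in the number of calls thus does not show for any gene that the effects differ. Of the 328 genes called higher with AMPA, 251 (76.5%) also had a higher mean in the glyphosate pair, as 48.7% of all tested genes did. Of the 660 called lower 481 (72.9%) were lower there, as 51.3% of all tested genes were. With the GC and length trend removed the shares were 76.3% of 135 and 71.9% of 249.

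The cytokine IL11, which was picked for description after its values were seen, was lower with 2,4-D in both settings. It read 11.8, 11.5 and 11.7 FPKM with AMPA against 7.29, 8.44 and 8.03 FPKM in the mixture (-0.50, adjusted p = 0.0031), and 13.4, 12.1 and 12 FPKM with glyphosate against 9.35, 8.33 and 8.06 FPKM in that mixture (-0.49, adjusted p = 0.0316). PFKFB3 had -0.41 in both settings, with 13.4, 11.9 and 14.3 FPKM against 10.3, 8.87 and 9.81 FPKM in the glyphosate pair. Among the rises, GSTA2 had 0.96 in both, with 3.13, 2.24 and 2.31 FPKM against 6.89, 4.39 and 6.63 FPKM for glyphosate, TECTB had 0.60 and 0.73, GPAM 0.56 and 0.50, and SLC17A2 0.71 and 0.45. GPAM read 17.2, 21 and 16.3 FPKM with 2,4-D alone.

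Other genes differed in size or sign between the settings without passing the test of the difference. The glycolysis list had a median of -0.07 in the glyphosate pair, with 27 of 35 members below 0, and TPI1 had 0.00 there. The actin list had -0.04, with 21 of 24 below 0. The ribosomal proteins had 0.02, with 52 of 78 above 0, and the unfolded protein response -0.00. APOC3 had 0.16 with glyphosate, at 134, 134 and 132 FPKM against 145, 143 and 158 FPKM, and a difference between effects of -0.55 (adjusted p = 0.0676). NDUFA4L2 had -0.02 there, with a difference between effects of -0.37, and SLC13A5, the citrate transporter, had -0.25 with AMPA and 0.18 with glyphosate. In the other direction the inositol transporter SLC5A3 had 0.34 and -0.26, MBIP 0.41 and -0.08, and SELENOI, an enzyme of phosphatidylethanolamine synthesis, 0.27 and -0.01. All 6 had adjusted p = 0.0676 for the difference between effects. Other genes named above shared that adjusted p. CYR61 had -0.45 with AMPA and 0.12 with glyphosate, GADD45B -0.39 and 0.11, EBP -0.27 and 0.05, and ACTB -0.29 and -0.01. APOC3 was called on TPM (adjusted p = 0.0302) and with the 12 compared libraries alone (adjusted p = 0.0242).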

How the data were processed

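Total RNA of C3A cells was sequenced after extraction with QIAzol and RNeasy and library preparation with a SMARTer kit, per the labels' protocols. Reads were processed with HISAT2 2.0.5, featureCounts 1.5.0-p3 and GRCh38, per the submitters' processing notes. The authors deposited FPKM per gene in a table for each group, and the scaling is not given in the sources used here. FPKM times gene length gave whole reads within 0.1, which set the depth and the voom alternative.

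Genes absent from a table were set to 0. Genes with FPKM of at least 1 in 3 of the 6 libraries were tested on log2(FPKM + 1) with limma 3.58.1 in R 4.3.3, with group means over the 15 exposed libraries, eBayes with a mean-variance trend and Benjamini-Hochberg adjustment over 12066 genes. The procedure was checked on simulated data in which each gene had the same spread in every library. The simulation held no GC trend and no split between replicates, so it does not bear on the calls under that split. Tables and figures used Python 3.11.15, pandas 2.3.3, NumPy 2.4.6, SciPy 1.17.1 and matplotlib 3.10.9. GC content, length and exon overlaps (at least 50 bases, opposite gene at least 50 FPKM and 20 times the level) came from GENCODE release 29, and promoters from RefSeq. Replicate 2 agreed where all 3 libraries of the mixture lay beyond the AMPA range to the same side.

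Named genes were protein-coding: the 8 largest called changes each way where replicate 2 agreed, the 4 largest where it did not (or smallest p), the 3 most abundant called each way, up to 4 per list with at least 3 called in a direction, 3 each way for the difference between effects, 3 each way with replicate 2 farthest from the others, and 8 fixed genes. Some members of the lists are counted but not reported here by name. Further list members, IL11, KRT19 and MIR6870 were chosen after their values were seen. The comparison, members and lists were chosen with earlier results of these data known. Alternatives were TPM, median-of-ratios scaling, a pseudocount of 0.1, no filter, other sets of libraries, a replicate block, array weights and voom. Replicates 1 or 3 alone and the correction for GC content and length (loess per library) were added after the data were seen.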

Additional observations from a re-analysis of the deposited data

How the results depend on the processing

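For AMPA+2,4-D against AMPA, 988 genes were called, 328 higher and 660 lower. Leaving out AMPA+2,4-D or AMPA libraries in turn gave 284 to 1696 calls, 69 to 635 higher and 215 to 1061 lower. The lowest count was without AMPA+2,4-D replicate 1 and the highest without replicate 2. AMPA+2,4-D replicate 2 alone gave 2 calls (0 higher, 2 lower), replicate 1 alone 888 and replicate 3 alone 507 (95 and 412). The lone library is then assumed to vary like the other groups. Removal of the GC and length trend gave 384 (135 and 249), the same with the replicate block 337 (121 and 216), without replicate 2 523 (117 and 406), and with replicate 2 alone 1 (0 and 1). The compared groups alone gave 3 (0 and 3), all 21 libraries 391 (105 and 286), no filter 573 (195 and 378), voom 1729 (994 higher), array weights 1461 (512 higher), and TPM 913 (611 and 302). The replicate block gave 926 calls. Replicate numbers are not known to pair the libraries: same-numbered deviations correlated at -0.02, 0.03 and 0.03.

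For the glyphosate pair, with 4 calls, removal of the GC and length trend gave 14, or 13 with the replicate block, the replicate block alone 2, array weights 61, voom 129, and TPM, no filter, all 21 libraries and the compared groups alone 0 each. Leaving out a library gave 0 to 1. For the difference between effects, with 0 calls, replicate 1 alone gave 95, replicate 3 alone 78, removal of the GC and length trend without AMPA+2,4-D replicate 2 89, array weights 32, voom 154, and TPM and the compared groups alone 1 each. Leaving out a library gave 0 to 261, the highest without AMPA+2,4-D replicate 2. The causes were not tested.

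Of the 92 named genes called, 88 kept the call without AMPA+2,4-D replicate 2, 44 without replicate 1, 53 without replicate 3, 46 with the GC and length trend removed, 66 on TPM, 43 with all 21 libraries and 81 with the replicate block. With the compared groups alone 1 kept it, with AMPA+2,4-D replicate 2 alone 2, and with that library and the trend removed 1. None changed sign in these settings. With 3 libraries a group, the median 95% interval reached 0.15 to either side on the log2 scale, and the smallest called difference was 0.11.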

Other observations

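A list of 18 targets of ERK signalling was drawn up after the falls of DUSP5 and IL11 were seen, so its values are a description. Of 17 tested members, 4 were called lower with 2,4-D added to AMPA and 0 higher, beside 5.47% lower among all tested genes. The 4 were DUSP5, ETV4, FOSL1 and EPHA2. The median over the list was -0.09, with 12 of 17 below 0, and in the glyphosate pair -0.12, with 14 of 17 below 0. EPHA2, a receptor tyrosine kinase, read 127, 132 and 122 FPKM with AMPA and 101, 109 and 105 FPKM with the mixture, a difference of -0.28 (limma, adjusted p = 0.0297). The feedback inhibitor SPRY4 read 24.8, 27.0 and 26.9 FPKM against 23.9, 24.4 and 25.1 FPKM, which was not called (-0.10, adjusted p = 0.112), whereas in the glyphosate pair it had -0.24 (adjusted p = 0.0437). DUSP6 had -0.05 and EGR1 0.09.

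KRT19, a keratin of simple epithelia and bile ducts, read 27.7, 28.9 and 28.4 FPKM with AMPA and 20.6, 21.1 and 21 FPKM with the mixture (-0.42, adjusted p = 0.00781). It was among the 3 genes called when the spread came from the compared libraries alone. The microRNA gene MIR6870, 60 bases long, was at 4.21, 2.86 and 4.16 FPKM with AMPA and listed at 0 in all 3 libraries of the mixture, from 4, 3 and 4 reads against 0. It was also listed at 0 in replicate 1 of 2,4-D alone and in replicates 1 and 2 of glyphosate+2,4-D, and was not called in the fit over 15 libraries (adjusted p = 0.0542). Of the compared libraries only those of AMPA reached 1 FPKM, so that MIR6870 passed the filter through the group where it was high.

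Fewer genes were above 0 with the mixture, 20884 ± 168 against 21466 ± 204 with AMPA (SD, n = 3 each). This difference was at the smallest p that 3 against 3 allows (exact permutation p = 0.1, two-sided). Replicates 1, 2 and 3 of the mixture had 20771, 21077 and 20804 genes at 18.2, 15.29 and 18.52 M reads. Those of AMPA had 21240, 21636 and 21521 genes at 16.53, 18.11 and 17.02 M reads. The part of depth and of the split between replicates was not tested.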
